A study of Mus musculus with 3 samples.

Results

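The axon guidance genes examined here are 56 mouse genes in 7 families of ligands and receptors, taken by gene symbol from the 21418 protein-coding gene models of chromosomes 1 to 19 (GENCODE mouse version 1, build mm9). They are 20 semaphorin ligands of classes 3 to 7, 7 plexin receptors, 2 neuropilin co-receptors, 3 Slit ligands, 4 Robo receptors, 7 ephrin ligands and 13 Eph receptors. The families were compared by where the transcription factor TFAP2A was found on their chromatin in melan-a cells, an immortalized melanocyte line from normal embryonic mouse skin. Every sample had the genotype Cdkn2a tm1RDp/tm1RDp. Cells were untreated but grown with a phorbol ester and cholera toxin, and TFAP2A-bound DNA was recovered with the antibody AP-2alpha (3B5) and sequenced (ChIP-seq) in 2 replicates, which the labels trace to independent experiments. There was also 1 input sample, for which no values were analysed here. All results are from 1 cell line, without a second condition.

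Semaphorins are secreted or membrane-bound ligands that steer growing axons and migrating cells through plexins, and the secreted class 3 members mostly need a neuropilin as co-receptor. Slits are secreted ligands of Robo receptors. Ephrins are anchored to the membrane and signal to Eph receptor tyrosine kinases on a neighbouring cell. These systems also act on neural crest cells, the embryonic source of melanocytes, and both cell types express TFAP2A.

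Each peak list gives regions where ChIP reads exceeded background, each with a summit, the position of strongest signal, and a fold enrichment. A promoter summit is one no more than 5 kb upstream or 1 kb downstream of a transcription start site (TSS) of the gene, and a gene-window summit lies in the gene body or within 50 kb of it. On chromosomes 1 to 19 replicate 1 held 18151 peaks and replicate 2 held 20991, and 87.0% and 76.0% of them overlapped a peak of the other list (a shared peak). The read depth of the lists is unknown, and a missing summit means that none was listed, not that TFAP2A was absent. Melanocyte identity could be examined only through binding: 6 of 10 melanocyte marker genes had a promoter summit in both lists and 10 of 10 had a gene-window summit in both, beside 17.5% and 60.6% of all gene models.

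The strongest shared promoter peaks are printed because they are the promoter-bound sequences on which the family counts rest. TFAP2 factors bind GC-rich palindromes, here searched as GCCNNNGG on both strands. Each line gives the 101 bases around a replicate 1 summit in mm9, with every match in capitals and overlapping matches run together. Of the 7 families, 4 had a shared promoter peak, and the one with the highest mean enrichment in each is shown.
Sema4d promoter peak, chr13:51856713-51856813, + strand: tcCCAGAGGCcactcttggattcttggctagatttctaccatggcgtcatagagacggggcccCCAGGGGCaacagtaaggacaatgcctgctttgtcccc
Plxnd1 promoter peak, chr6:115949107-115949207, + strand: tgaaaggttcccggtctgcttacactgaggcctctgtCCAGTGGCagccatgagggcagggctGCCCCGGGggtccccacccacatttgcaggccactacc
Nrp1 promoter peak, chr8:130883470-130883570, + strand: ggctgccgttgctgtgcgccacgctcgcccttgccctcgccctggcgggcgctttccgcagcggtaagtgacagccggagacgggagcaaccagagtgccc
Efna1 promoter peak, chr3:89083641-89083741, + strand: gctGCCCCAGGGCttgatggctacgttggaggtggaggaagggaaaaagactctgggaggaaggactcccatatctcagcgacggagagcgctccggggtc
The Sema4d, Plxnd1 and Efna1 windows each held 2 matches. The Nrp1 window around the replicate 1 summit held 0, and the replicate 2 summit, 55 bp away, had 4 within 50 bp.

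The strongest shared gene-window peak of each family is printed in the same way, since most listed binding lay outside promoters. For the semaphorins, neuropilins, Robos and ephrins this peak was in an intron, for the Slits it was upstream of the gene, and for the plexins and Eph receptors downstream.
Sema3c gene-window peak, chr5:17179699-17179799, + strand: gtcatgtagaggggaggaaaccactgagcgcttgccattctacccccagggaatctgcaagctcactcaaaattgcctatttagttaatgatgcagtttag
Plxnc1 gene-window peak, chr10:94237672-94237772, + strand: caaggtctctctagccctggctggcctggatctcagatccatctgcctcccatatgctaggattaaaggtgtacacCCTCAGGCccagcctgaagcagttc
Nrp1 gene-window peak, chr8:131007370-131007470, + strand: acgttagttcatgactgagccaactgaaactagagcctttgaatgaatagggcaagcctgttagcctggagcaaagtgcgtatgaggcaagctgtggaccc
Slit1 gene-window peak, chr19:41850849-41850949, + strand: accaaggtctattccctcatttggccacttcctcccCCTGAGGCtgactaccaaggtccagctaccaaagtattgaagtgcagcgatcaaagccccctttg
Robo4 gene-window peak, chr9:37216899-37216999, + strand: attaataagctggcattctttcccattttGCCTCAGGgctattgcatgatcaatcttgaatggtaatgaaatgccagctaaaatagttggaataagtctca
Efna5 gene-window peak, chr17:63031207-63031307, + strand: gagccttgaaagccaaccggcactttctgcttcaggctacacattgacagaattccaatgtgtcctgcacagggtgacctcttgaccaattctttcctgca
Epha4 gene-window peak, chr1:77346789-77346889, + strand: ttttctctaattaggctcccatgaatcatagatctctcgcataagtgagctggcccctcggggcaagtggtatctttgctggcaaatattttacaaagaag
The windows of Plxnc1, Slit1 and Robo4 held 1 match each, and those of Sema3c, Nrp1, Efna5 and Epha4 held 0. Of these 4 windows, those of Efna5 and Epha4 held 2 matches each to a pattern with a longer gap, GCCNNNNGG, and those of Sema3c and Nrp1 held 0.

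Of the 56 genes, 15 had a promoter summit in both lists (26.8%, exact Clopper-Pearson 95% interval 15.8 to 40.3%), beside 17.5% of all gene models. Such intervals cover counting error over genes or peaks only. In replicate 1 the count was 16 genes, beside 19.0% of all gene models, and in replicate 2 it was 18, beside 21.4%. No test was run over genes or peaks, which are not replicates, so the counts describe these lists.

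The 15 genes were unevenly divided among the families. They were 8 of the 20 semaphorins (Sema3b, Sema3c, Sema3g, Sema4b, Sema4c, Sema4d, Sema6c and Sema7a), 4 of the 7 plexins (Plxna2, Plxna4, Plxnb2 and Plxnd1), both neuropilins and 1 of the 7 ephrins (Efna1). The 3 Slits, 4 Robos and the 13 Eph receptors examined had 0 promoter summits in either list, beside 77.1% of all gene models with none. The semaphorin system, meaning semaphorins, plexins and neuropilins, thus held 14 of 29 genes (48.3%, 29.4 to 67.5%), and the Slit, Robo, ephrin and Eph genes held 1 of 27 (3.70%, 0.0937 to 19%). The systems were compared with earlier results of these data known, and the intervals are not a test against the background.

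**Figure D1:**
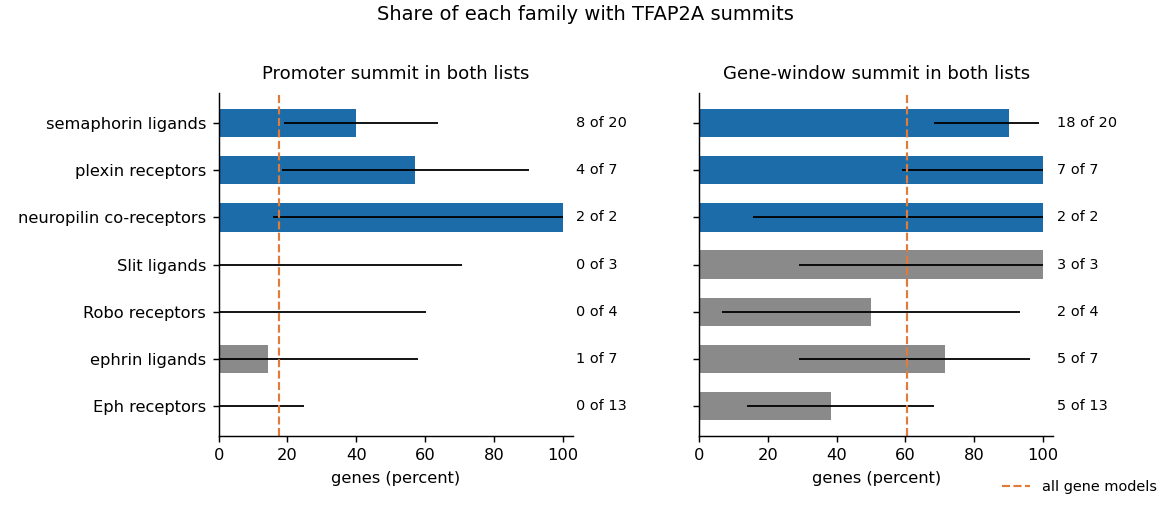
Bars give the percent of genes in each family with a TFAP2A summit in both lists, in promoters at left and in gene windows at right, with exact 95% intervals as black lines, the share of all gene models (17.5% and 60.6%) as a dashed line, and the semaphorin system in blue. The promoter bars of semaphorins, plexins and neuropilins lie above the dashed line, and those of the other 4 families lie below it. The promoter intervals of these 4 families and of the neuropilins cross the line.

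Semaphorin-system genes had more annotated promoter sequence than the others, a median of 12.0 kb per gene against 7.33 kb. By family the medians were 12.0 kb for semaphorins, 10.9 kb for plexins and 6.21 kb for neuropilins. For Slits, Robos, ephrins and Eph receptors they were 24.0, 12.5, 6.17 and 6.58 kb. The part of promoter length in the difference between the systems was not tested. With only the start of each gene as TSS, the counts were 12 of 29 and 0 of 27, beside 14.2% of all gene models by the same rule. Among genes under 20 kb, 4 of 6 semaphorin-system genes and 1 of 10 others had a promoter summit in both lists, beside 13.0% of all gene models. Among genes of 20 to 100 kb the counts were 5 of 10 and 0 of 5, beside 23.0%, and among genes over 100 kb they were 5 of 13 and 0 of 12, beside 24.5%. The order of the systems was thus the same in all 3 length classes.

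Among the ligands, Sema3b, which encodes a secreted class 3 semaphorin, had the most promoter summits, 4 in replicate 1 and 5 in replicate 2. Its 4 shared promoter peaks in replicate 1 had mean enrichments between 4.19-fold and 6.29-fold. They lay 3675 and 3069 bp upstream of the gene start, 171 bp inside a TSS, and 37 bp upstream of an internal TSS, so that the gene start and an internal start each had a peak close by.

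Sema4d, a membrane-bound class 4 semaphorin also known from immune cells, had 4 promoter summits in replicate 1 and 3 in replicate 2. Its 3 shared promoter peaks lay 31, 1848 and 4592 bp upstream of an internal TSS, and 32353 to 36914 bp inside the gene. The farthest of them was the strongest shared promoter peak of all 56 genes (chr13:51856457-51857352), with 14.1-fold enrichment in replicate 1 and 14.4-fold in replicate 2 (14.3 ± 0.172, SD, n = 2). Sema4b, also of class 4, had the next strongest, 1607 bp upstream of the gene start (chr7:87329768-87330416). Its enrichment was 10.3-fold in replicate 1 and 14.9-fold in replicate 2 (12.6 ± 3.26), a wider spread than at Sema4d.

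The other semaphorins with a promoter summit in both lists had 1 shared promoter peak each. The Sema4c peak (chr1:36612846-36613369) had 6.80-fold and 8.90-fold enrichment and lay in an intron, 1272 bp inside its nearest TSS and upstream of a further internal one. The peak of Sema7a, which encodes a semaphorin held to the membrane by a lipid anchor, lay 1592 bp upstream of the gene start (chr9:57786093-57786608), at 8.29-fold and 6.07-fold. The Sema3g peak (chr14:32028726-32029030), at 4.91-fold and 5.79-fold, lay in an intron of the neighbouring gene Nisch, 2156 bp upstream of Sema3g and 1242 bp inside the nearest Nisch TSS. The weaker peaks of Sema3c (chr5:17080069-17080360; 4.09-fold and 4.05-fold) and Sema6c (chr3:94964351-94964654; 3.03-fold and 3.34-fold) lay within 200 bp of a TSS, in UTRs. Promoter peaks at these ligands were thus found both at start sites and kilobases away from them.

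Among the receptors, Plxnd1, a plexin known for guiding blood vessels, had the strongest shared promoter peak, 4134 bp upstream of the gene start (chr6:115948233-115949511), with 8.54-fold and 6.93-fold enrichment (7.73 ± 1.14). Plxna4, a receptor for class 3 semaphorins, had 1 shared promoter peak, 3351 bp upstream of the gene start (chr6:32541362-32541683), at 5.17-fold and 5.47-fold. Plxnb2, a class B plexin that binds class 4 semaphorins, had 2, one 311 bp upstream of the gene start (chr15:89011385-89011697; 4.05-fold and 5.31-fold) and one in an intron 3378 bp upstream of an internal TSS (chr15:89007470-89007791; 4.72-fold and 5.65-fold). Plxna2 also had 2, at 872 bp inside the gene start (chr1:196446823-196447109; 2.59-fold and 3.03-fold) and 2812 bp upstream of an internal TSS (chr1:196468011-196468433; 4.06-fold in both lists). Each of these plexin peaks held at least 1 match to GCCNNNGG within 50 bp of the replicate 1 summit.

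Both neuropilins, the co-receptors of class 3 semaphorins, had promoter peaks of low enrichment. Nrp1 had 1 shared peak in an exon, 547 bp inside the gene (chr8:130883376-130883691), at 4.29-fold and 5.11-fold. Nrp2 had 2, at 2013 bp upstream of the gene start (chr1:62747726-62747997; 3.34-fold and 4.0-fold) and 151 bp inside it (chr1:62749914-62750178; 2.94-fold and 3.34-fold). Outside the semaphorin system the one shared promoter peak was that of Efna1, an ephrin that binds EphA receptors, in an intron 124 bp upstream of an internal TSS (chr3:89083528-89083888), at 5.76-fold and 7.50-fold (6.63 ± 1.23).

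Over the genes there were 23 shared promoter peaks, with mean enrichments of 2.81-fold to 14.3-fold and a median of 5.18-fold. The median of all 4050 shared promoter peaks of chromosomes 1 to 19 was 5.12-fold. Of the 23, 10 lay within 1 kb of a TSS, 12 lay farther upstream, and 17 had a GCCNNNGG match within 50 bp of the summit. Promoter peaks of these genes were thus of about the same enrichment as promoter peaks elsewhere.

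For 4 further genes a promoter summit was listed in 1 replicate only. Sema6d, a membrane-bound class 6 semaphorin, had 0 in replicate 1 and 4 in replicate 2, of 3.18-fold, 2.74-fold, 2.96-fold and 8.38-fold. Plxnc1, the receptor of Sema7a, had 0 and 1, the latter 3393 bp upstream at 7.66-fold. Plxnb1, a receptor of Sema4d, had 1 and 0, at 3.23-fold. The replicate 2 summit of Efna5, an ephrin that binds EphA receptors, lay 998 bp inside a TSS at 5.59-fold, and the overlapping replicate 1 peak at 5.91-fold had its summit 26 bp farther, just outside the promoter bound. The remaining 37 genes had a promoter summit in neither list, beside 77.1% of all gene models.

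**Figure D2:**
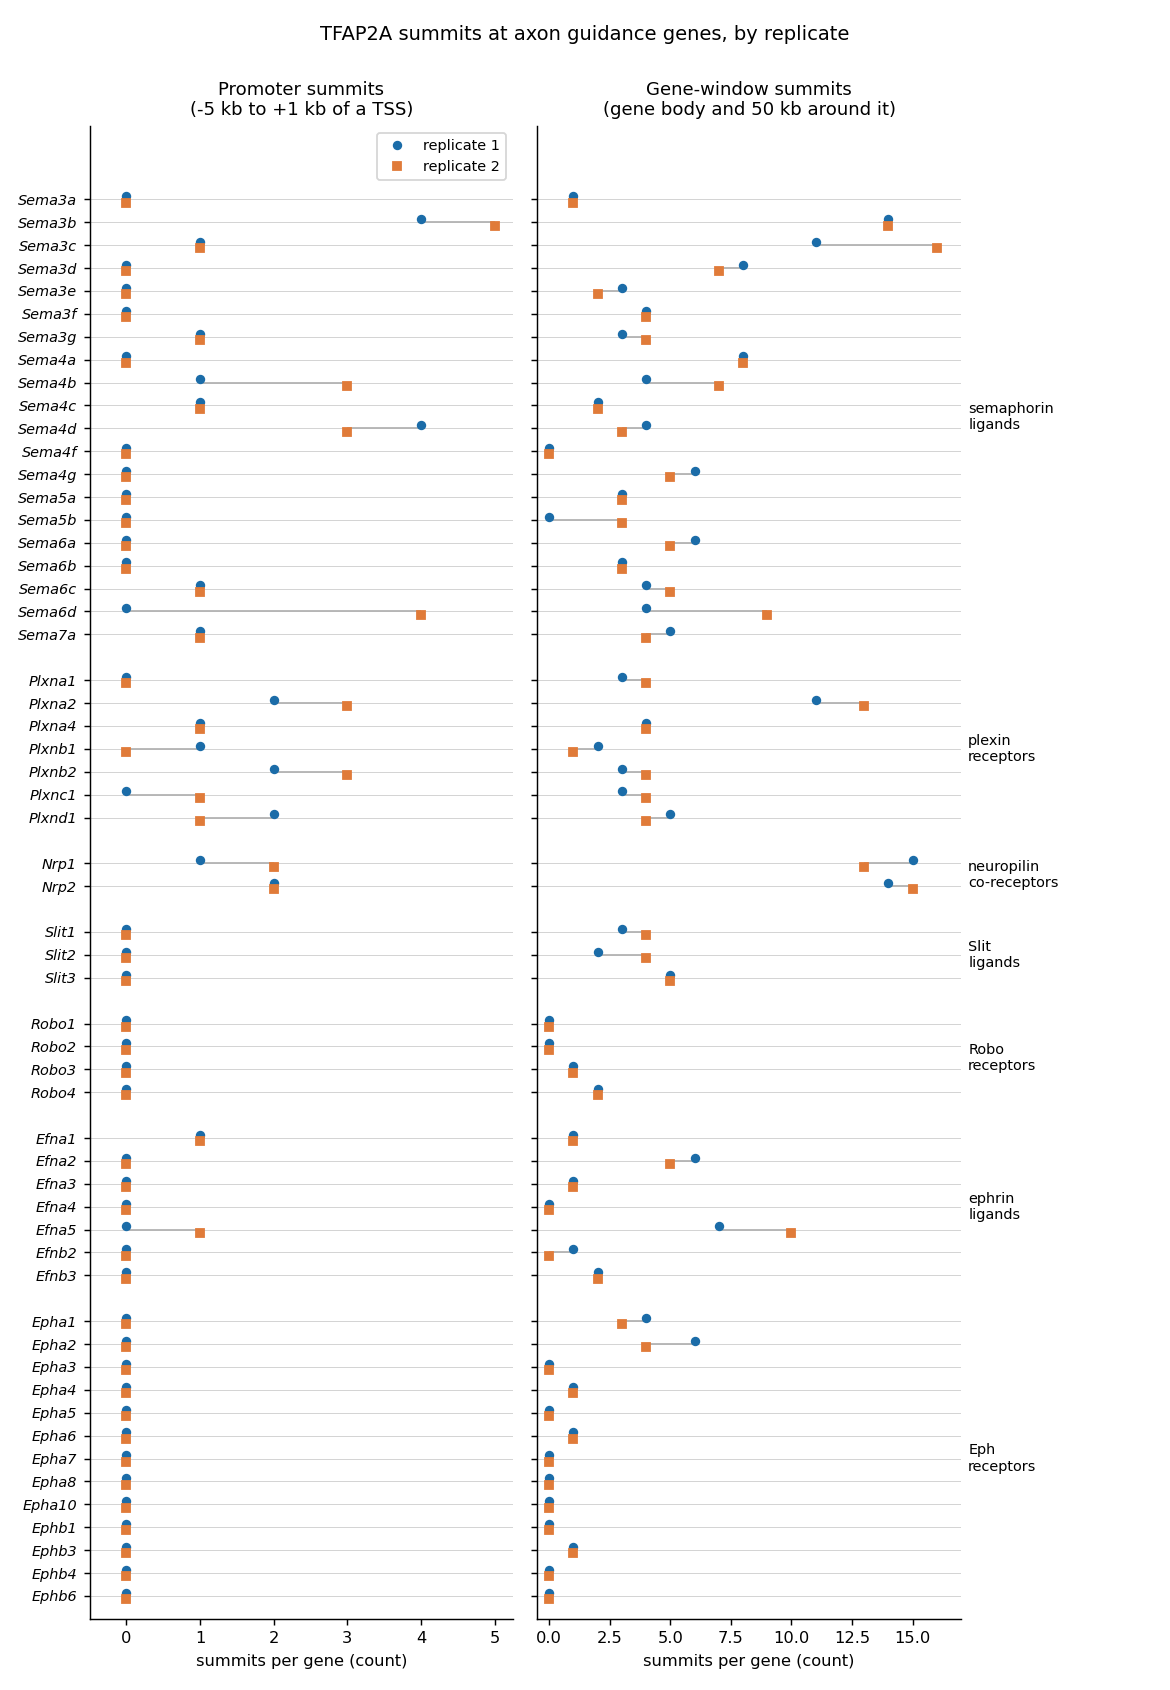
Each row is 1 of the 56 genes, with its number of promoter summits at left and of gene-window summits at right, in replicate 1 (circles) and replicate 2 (squares), joined by a line. Nrp1, Nrp2, Sema3b, Sema3c and Plxna2 have the most gene-window summits, 11 to 16 in each list, and most Eph receptors have 0.

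In the wider gene windows 42 of the 56 genes had a summit in both lists (75.0%, 61.6 to 85.6%), beside 60.6% of all gene models. By family these were 18 of 20 semaphorins, 7 of 7 plexins, 2 of 2 neuropilins, 3 of 3 Slits, 2 of 4 Robos, 5 of 7 ephrins and 5 of 13 Eph receptors. The Slits, which had 0 promoter summits, all had summits elsewhere in their windows. All 3 are over 100 kb long, a length at which 73.5% of all gene models had a gene-window summit in both lists. Of the Slit2 summits, 0 of 2 in replicate 1 and 2 of 4 in replicate 2 were nearest to a Slit2 TSS. No summit of either list lay in the windows of 12 genes, beside 31.9% of all gene models. They were the Eph receptors Epha3, Epha5, Epha7, Epha8, Epha10, Ephb1, Ephb4 and Ephb6, the Robo receptors Robo1 and Robo2, the ephrin Efna4 and the semaphorin Sema4f. Sema5b had 0 summits in replicate 1 and 3 in replicate 2, and Efnb2 had 1 and 0.

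Long genes were not always the ones with summits. The empty windows included some of the longest, such as those of Robo2 (519520 bp), Ephb1 (432566 bp) and Robo1 (382947 bp). Epha6, the longest gene of the group at 952049 bp, had 1 summit in each list, downstream of the gene and not nearest to an Epha6 TSS. In replicate 1 the nearest TSS was that of the neighbouring gene Arl6. Among genes over 100 kb, 12 of 13 semaphorin-system genes and 6 of 12 others had a gene-window summit in both lists, beside 73.5% of all gene models of that length. Among genes of 20 to 100 kb the counts were 9 of 10 and 1 of 5, beside 68.8%, and among genes under 20 kb they were 6 of 6 and 8 of 10, beside 53.4%.

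The median number of gene-window summits, as the mean of both lists, was 14.25 for neuropilins, 4.25 for semaphorins, 3.5 for plexins and for Slits, 1 for ephrins, 0.5 for Robos and 0 for Eph receptors. It was 3 over the 56 genes and 1 over all gene models. Semaphorin-system genes had on average 5.28 summits in replicate 1 and 5.76 in replicate 2, and the other genes had 1.63 and 1.67. The ratio of these means was 3.35 ± 0.154 (SD, n = 2 lists). This SD covers the difference between the lists and not the spread between genes, whose mean counts ran from 0 to 14.5 in the semaphorin system and from 0 to 8.5 in the others and so overlapped. Per 100 kb of window the pooled values were 2.37 and 0.587 summits, beside 1.29 for all gene models. By family they were 6.17 for neuropilins, 2.12 for semaphorins, 1.99 for plexins and 1.74 for ephrins. For Slits, Eph receptors and Robos they were 0.849, 0.300 and 0.225, so by this measure the Slits stood below the plexins and the ephrins.

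A window of 50 kb reaches into neighbouring genes, and not every summit in it was closest to the gene it was counted for. Of the 193 replicate 1 peaks in the windows 124 (64.2%) had a TSS of one of the 56 genes as the nearest protein-coding TSS, and of the 208 in replicate 2, 141 (67.8%) did. Counting only summits nearest to the gene's own TSS, 32 of 56 genes had one in both lists (57.1%, 43.2 to 70.3%), beside 32.2% of all gene models. The split was 23 of 29 genes of the semaphorin system and 9 of 27 others, and the mean number of such summits was 3.86 ± 0.341 and 0.759 ± 0.0786 per gene. Of the Efna5 summits, 2 in replicate 1 and 5 in replicate 2 were nearest to a TSS of the long model, and the rest were nearest to a second short model inside that gene and were not counted. Sema4a had 8 summits in each list and Efna2 had 6 and 5, and 0 of them were nearest to these genes. The order of the systems was the same by this count. Neighbouring members shared few peaks: Efna1 and Efna3 had 1 in common in each list, Robo3 and Robo4 had 1, and Sema3b and Sema3f had 2.

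The 5 genes with the most summits per window were Nrp2, Nrp1, Sema3b, Sema3c and Plxna2, all of the semaphorin system. At least 10 summits per window, as the mean of the lists, were found in 1.16% of all gene models and in 6.27% of those over 100 kb. Of the 5 genes 4 were over 100 kb long, and Sema3b was 11556 bp.

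Nrp2, whose product binds class 3 semaphorins and vascular growth factors, had 14 summits in replicate 1 and 15 in replicate 2. All of them were nearest to a Nrp2 TSS and stood in the first part of the gene, from 2013 bp upstream to 49640 bp inside in replicate 1. They were of even height, 2.63-fold to 7.74-fold in replicate 1 and 2.71-fold to 9.34-fold in replicate 2. Nrp1, its paralog, had 15 and 13 summits, of which 11 and 9 were in introns. In Nrp1 the heights were uneven, up to 21.6-fold in replicate 1 and 18.1-fold in replicate 2.

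Sema3c, a secreted semaphorin with roles in the outflow of the heart, had 11 and 16 summits, all nearest to its own TSSs. It held the strongest shared peak of the whole group. Plxna2, a receptor for class 3 and class 6 semaphorins, had 11 and 13 summits, also all nearest to its own TSSs, of up to 12.7-fold and 16.9-fold. Sema3b had 14 in each list within a window of 111.556 kb, 12.5 per 100 kb, which was rank 5 of the 21418 gene models by this density. Only 6 of its 14 were nearest to a Sema3b TSS in each list, and the others were nearest to neighbours such as Gnai2 and Rassf1.

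**Figure D3:**
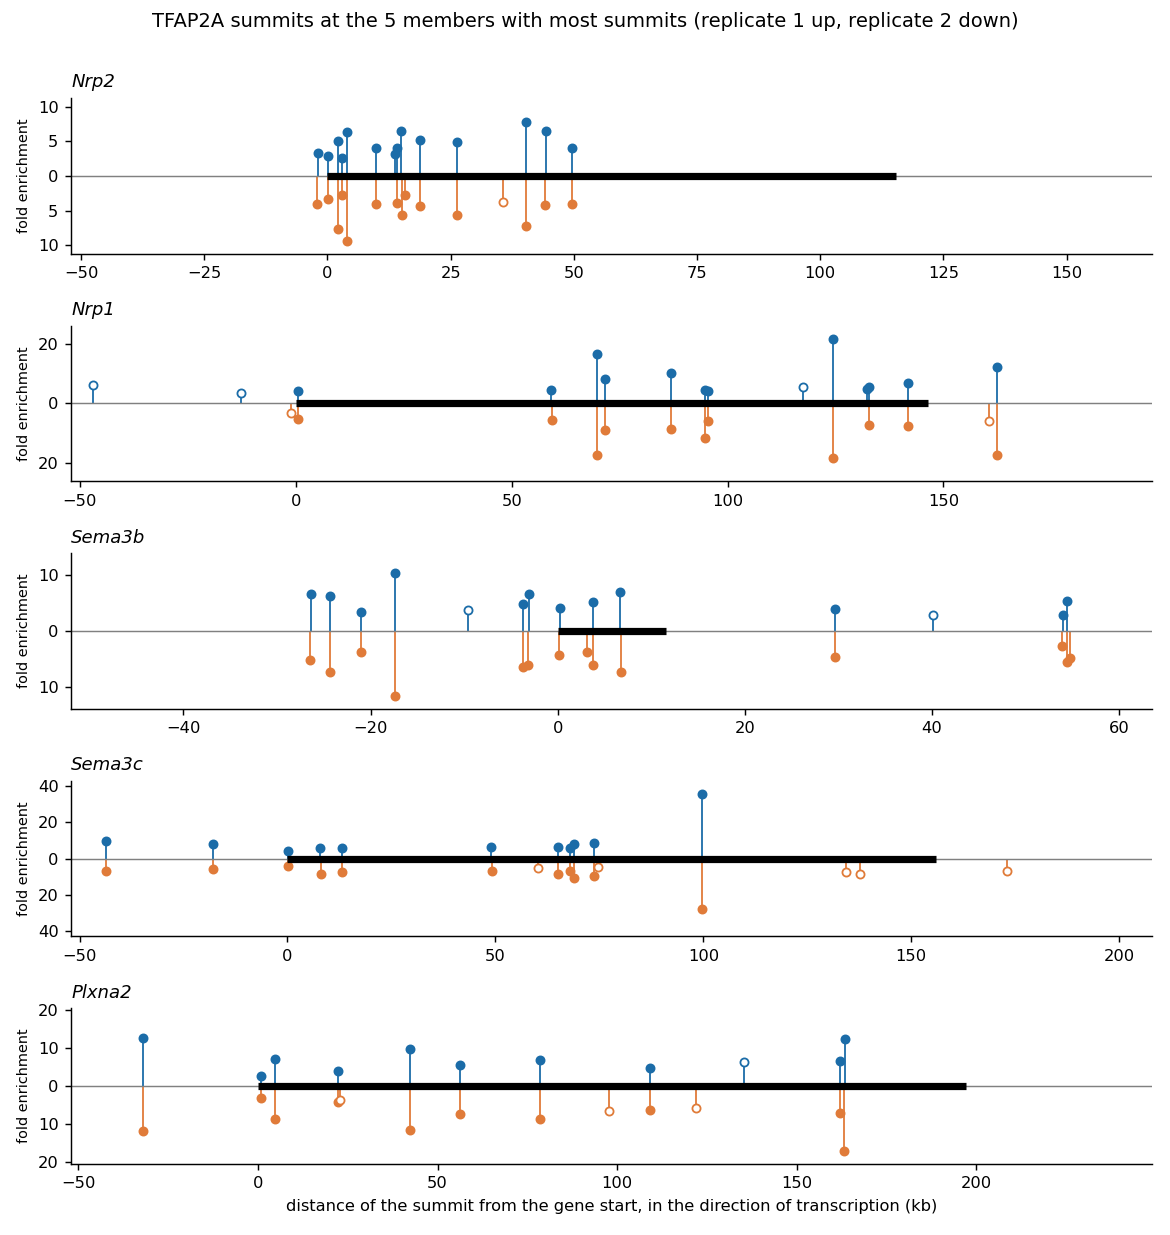
Summits at Nrp2, Nrp1, Sema3b, Sema3c and Plxna2 are drawn by distance from the gene start in kb, with fold enrichment upward for replicate 1 and downward for replicate 2, filled circles for shared peaks, open circles for peaks in 1 list, and a thick bar for the gene. Nrp2 summits crowd into the first 50 kb of the gene with heights under 10, and Sema3c has 1 summit, near 100 kb, far above its others in both replicates.

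The strongest shared peaks lay in introns or outside the gene. The strongest was in an intron of Sema3c (chr5:17179418-17180297), 20271 bp upstream of an internal TSS, with 35.9-fold and 28.2-fold enrichment (32.0 ± 5.41). The next was downstream of Epha4 (chr1:77346333-77347307), which encodes a receptor for both ephrin classes, at 32.9-fold and 28.9-fold (30.9 ± 2.84). It was the single summit in the Epha4 window in either list and lay between genes, 164824 bp from the Epha4 start. An intron of Sema6d held the one after it (chr2:123998174-123998940), at 19.8-fold and 23.5-fold (21.7 ± 2.59).

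Intronic sequence of Nrp1 held the next peaks in this order, at chr8:131006774-131007702 with 21.6-fold and 18.1-fold enrichment (19.9 ± 2.48) and at chr8:130952467-130953378 with 16.5-fold and 17.1-fold (16.8 ± 0.388). Neither had a GCCNNNGG match within 50 bp of its summit. Ephb3, a receptor for B-class ephrins without promoter summits, had a single window peak 17727 bp upstream (chr16:21186828-21187357), at 16.8-fold and 13.2-fold. The strongest plexin peak, at 15.3-fold and 14.6-fold, was counted for Plxnc1 but lay in an intron of the neighbouring gene Ccdc41 (chr10:94237210-94238013), 169490 bp from the Plxnc1 start.

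The strongest shared peaks of the ephrins, Slits and Robos were of lower mean enrichment than those of the other families. For Efna5 it was an intron peak 199409 bp inside the gene (chr17:63030633-63031728), at 11.8-fold and 10.7-fold (11.3 ± 0.809). For Slit1 it lay 32744 bp upstream, in an intron of Arhgap19 (chr19:41850690-41851137), at 10.1-fold and 8.89-fold (9.49 ± 0.848). The Robo4 peak (chr9:37216755-37217145), in an intron of this endothelial Robo receptor, is also the only peak in the Robo3 window, at 5.99-fold and 12.2-fold (9.08 ± 4.37). It was 1 of 3 shared pairs at these genes whose enrichment differed by more than 2-fold between the lists, with one in Nrp1 and one upstream of Sema5a.

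Of the 193 replicate 1 peaks in the gene windows 169 were shared (87.6%, 82.1 to 91.9%), and of the 208 in replicate 2, 171 were (82.2%, 76.3 to 87.2%). These shares stand beside 87.0% and 76.0% over all peaks. Intron summits numbered 87 in replicate 1 and 90 in replicate 2, and promoter summits 26 and 35. No intron share over all peaks is given beside these counts, so they are not read as particular to these genes. The median enrichment was 4.19-fold and 4.35-fold at promoters and 6.36-fold and 7.48-fold in introns, so the median was higher in introns in both lists. Shared promoter peaks were also lower over chromosomes 1 to 19, with a median of 5.12-fold beside 6.20-fold for all 15732 paired peaks, so this contrast is not one of these genes alone. The median over all window peaks was 5.46-fold and 6.09-fold, beside 5.53-fold and 5.72-fold for all peaks, and these differ by less than the spread between the lists.

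Among the 167 peaks paired by their mutual best overlap, the 2 enrichment values had a Spearman correlation of 0.861, given as a description across peaks that share 2 libraries. Over all 15732 pairs it was 0.846. The ratio of replicate 2 to replicate 1 had a median of 1.07, 164 pairs were within 2-fold, and the summits were a median of 20 bp apart. The replicates therefore ranked the paired peaks at these genes in much the same order. The 24 replicate 1 and 37 replicate 2 window peaks that were not shared are outside this comparison.

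**Figure D4:**
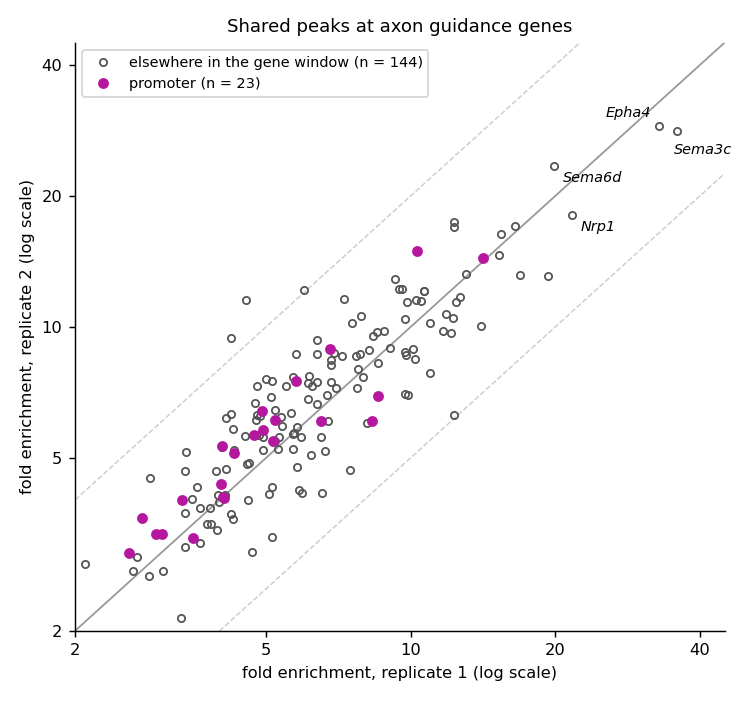
Each point is 1 of 167 shared peaks at the axon guidance genes, with fold enrichment in replicate 1 against replicate 2 on log scales, promoter peaks filled, and dashed lines at a 2-fold difference. Promoter peaks stay below 15-fold in both replicates, and the peaks of Sema3c, Epha4, Sema6d and Nrp1 stand at the upper end.

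A GCCNNNGG match stood within 50 bp of 58.5% of the replicate 1 summits in the gene windows (51.3 to 65.6%) and 58.7% of those in replicate 2 (51.6 to 65.4%). In flanking windows as long, with their centres 400 bp from the summit, the shares were 19.9% and 17.8%. Over all summits they were 55.4% and 58.4%, with 15.1% and 15.5% beside them. By family the share was highest at Eph receptor windows, 10 of 13 and 8 of 10 summits, and lowest at Slits, 4 of 10 and 4 of 13, both with wide intervals (46.2 to 95% and 12.2 to 73.8% in replicate 1). The flanks of these families ran the same way, 26.9% and 25% at Eph receptors and 0% and 3.85% at Slits. The highest flank shares, 32.4% and 27.8%, were at ephrins, where only 8 of 17 and 9 of 18 summits had the match. Within 100 bp the Eph share was no longer the highest, so no order of families is read from these shares. Of the summits without this match, 36.2% in replicate 1 and 40.7% in replicate 2 had GCCNNNNGG, beside 9.38% and 14.5% in the flanks. Over all summits without the first match the shares were 35.0% and 38.4%, near those at these genes. Of the 10 strongest shared peaks 5 had no GCCNNNGG match at the replicate 1 summit, 6 were in introns and 0 were in promoters.

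The promoter sequences themselves were also searched, from 5 kb upstream to 1 kb downstream of the gene start. All 56 windows held at least 1 GCCNNNGG match, as did 99.3% of all gene models. The median number was 17 in the semaphorin system and 18 in the other families, beside 12 over all gene models, and the median GC content was 51.6% and 50.5%. Ephrin promoters had a median of 24 matches and 1 of 7 had a promoter summit in both lists, and plexin promoters had 27 and 4 of 7 did. Sema3b had the most matches of the 56 genes, 41, where the highest of all gene models was 77, and Epha8, without a summit in its window, had 31. Genes with a promoter summit in both lists had a median of 22 matches and those with none in either list 16, beside 16 and 11 over all gene models. Matches were counted at the gene start only, and summits at every TSS, and the part of match number in the summit counts was not tested.

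**Figure D5:**
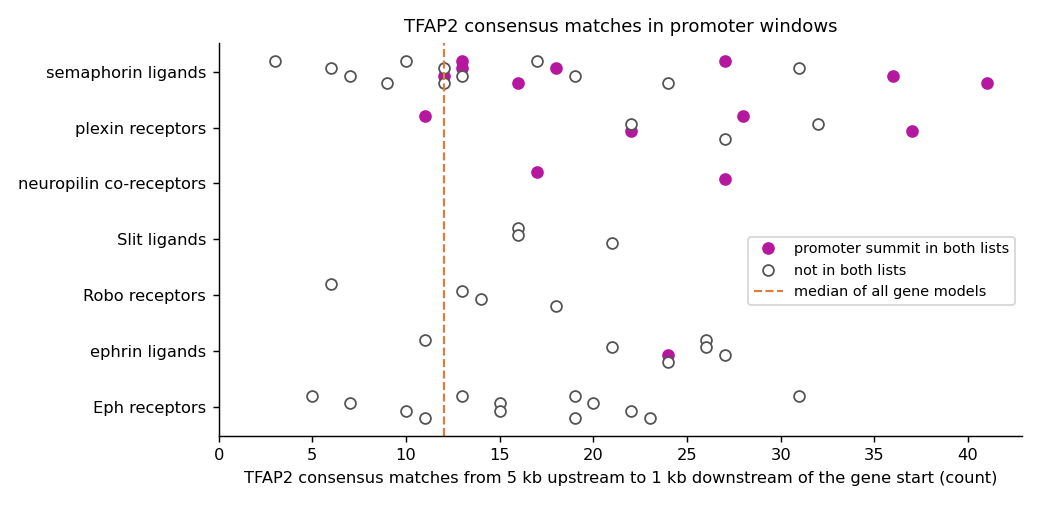
Each point is 1 gene, placed by the number of GCCNNNGG matches from 5 kb upstream to 1 kb downstream of its start, filled where a promoter summit was in both lists, with the median of all gene models (12) as a dashed line. The Slit, Robo, ephrin and Eph genes cover much the same range as the semaphorins and plexins, with 1 filled point among them.

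Other genes of the guidance pathways, from lists fixed by name, were counted in the same way. Of 15 netrin and RGM ligands and receptors 2 had a promoter summit in both lists, Neo1 and Rgmb, and 11 had a gene-window summit in both. Of 36 cytoplasmic effectors of guidance signals, such as Limk1, Rac1 and Trio, 17 had a promoter summit in both lists and 31 a gene-window summit. The backgrounds are again 17.5% and 60.6% of all gene models.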

How the data were processed

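TFAP2A ChIP-seq was performed in 2 replicates of melan-a cells, with 1 input sample. The authors deposited 1 peak list per replicate, not pooled, with a fold enrichment (a ratio over background), the −log10 p-value, the −log10 q-value and a score for each peak. The deposited score, 10 times the −log10 p cut to a whole number, was not used. The submitters' processing notes name BWA, MACS 1.4.2 and mm9, but lists with q-values and summit offsets are the layout of later MACS versions, so the version behind these values is uncertain. Read filters are not given in the sources. The smallest values listed are a −log10 p of 5.05 and a −log10 q of 2.64.

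Peaks overlapping by at least 1 bp between lists were called shared. Genes came from GENCODE mouse version 1, and for Efna5, which has a second short model of 2416 bp inside the long one, the long model was used. X-linked genes are not among the members, and 1 further autosomal Eph receptor gene lies outside the selection rule and is not reported here. Named genes were those with promoter summits in both lists, the 5 with most summits, the strongest shared peaks overall and per family, and those without summits. Sequences were read from the mm9 genome, and matches were counted on both strands. Members and lists were chosen with earlier results of these data known. Counts used Python 3.11.15, numpy 2.4.6, pandas 2.3.3, scipy 1.17.1, pysam 0.24.0 and samtools 1.23.1. The overlap and sequence searches were first tested on simulated data.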

Additional observations from a re-analysis of the deposited data

How the results depend on the processing

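The alternatives were a minimum −log10 q of 5, the more enriched 50% of either list, each list alone, stricter overlap, other windows and other sequence rules. Of 45 values under alternatives 33 stayed within 1.5 times the reported count or, for other quantities, within 1 SD between the lists, and 5 of the 7 for the share with GCCNNNGG did not. For these other quantities the value of 1 list always lies within 1 SD of the mean of 2, so those agreements were fixed in advance. The SD of the GCCNNNGG share was only 0.0740 percentage points, so small shifts counted as changes. The tally is therefore not a measure of robustness. The 15 genes with a promoter summit in both lists became 7 in the upper 50% by enrichment and 9 with promoters of 1 kb to each side of a TSS, and were 16 to 18 with each list alone. In the semaphorin system these counts were 6, 8 and 15 to 16 genes, and in the other families 1, 1 and 1 to 2. No share of all gene models is given for the upper 50% or the 1 kb promoters. The 17.5% holds for the main rule only, so these counts cannot be set against a background. The 169 shared peaks became 80 in the upper 50%, 109 with 10 kb around genes and 110 where the nearest TSS had to be that of a member. The ratio of summits per gene, 3.35, was 4.21 with 10 kb, 2.98 with 100 kb, and 3.24 to 3.46 with each list alone. The 58.6% of summits with GCCNNNGG was 58.4% at a −log10 q of at least 5, 56.3% in the upper 50%, 60.3% among shared peaks, 70.3% within 100 bp and 22.6% for GCCNNNGGC. The counts by own TSS, by system and for the longer gap were chosen after the data were seen.

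No paired analysis was possible because the 2 ChIP replicates form 1 group and no values of the input were analysed. Depth behind the lists is unknown, and with 2 replicates an SD is itself imprecise. Expression was not measured in these samples.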

Other observations

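Of the X-linked relatives of these genes, Plxnb3 had 0 promoter summits in either list and 1 and 2 gene-window summits in replicates 1 and 2. Plxna3 had 0 promoter summits and 2 gene-window summits in each list. Efnb1, an ephrin of class B, had 1 promoter summit in each list, its only gene-window summit.

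Netrin and RGM genes with many gene-window summits and no promoter summit included Unc5c, a netrin receptor, with 6 and 10 summits in replicates 1 and 2, and Ntn4, a secreted netrin, with 7 in each list. Both were chosen after their values were seen.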
